A study of Rattus norvegicus with 2 samples.

Results

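Intermediate filaments form a cytoskeletal system beside actin and microtubules, built from rod-shaped proteins that pair into coiled coils and pack into rope-like fibres. The group described here comprises 10 of the 17202 genes in the deposited table: the cytoplasmic filament genes Vim, Nes and Gfap, the nuclear lamin genes Lmna, Lmnb1 and Lmnb2, and the neuronal filament genes Ina, Nefl, Nefm and Nefh. Members were chosen by gene symbol, each matched 1 row, and the group was put together with earlier results of these data known. The counts and TPM values compared below, among them the high level of vimentin, had therefore been seen, and they are given as a description with no test.

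The cultures were primary oligodendrocyte precursor cells (OPCs) from wild-type rat brain, grown in the medium OGM. One culture received amyloid-beta (Aβ), the peptide of Alzheimer plaques, at 1 µM for 2 days, and the control culture received DMSO, for a time that the labels give only in the wording shared with Aβ. Each condition gave 1 bulk RNA library, so no difference below has a replicate check. The labels call the cells adult in one place and the animals developing in another, and the sample titles begin with P1, which the labels do not explain.

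In glia, the filament make-up marks developmental state. Vimentin and nestin are typical of neural stem cells and early glial progenitors, GFAP is the filament of astrocytes and of some progenitors, and the neurofilament proteins stiffen axons. Lamins form the mesh under the nuclear envelope; B-type lamins stay anchored to the membrane through a farnesyl group, while lamin A, a product of Lmna, has its farnesyl tail cut off during maturation. Vimentin and GFAP can assemble on their own or together, nestin needs a partner such as vimentin, and the heavier neurofilament subunits need Nefl or alpha-internexin.

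The libraries held 15117113 (Aβ) and 15019418 (DMSO) rounded estimated counts. Genes that reached 1 CPM (counts scaled to library size) in either library count as measured; 13505 genes did, among them all 10 members. Ratios are CPM with Aβ over CPM with DMSO, with exact 95% Clopper-Pearson intervals that cover counting error only. They do not cover variation between cultures, extractions or library preparations, each of which was represented once per condition. A slight trend with transcript length was present: the median log2 ratio was -0.024 in the fifth of measured genes with the shortest transcripts and 0.027 in the fifth with the longest.

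Vim and Gfap were the 2 most abundant members. The 250 bases upstream of their starts are shown, 5′ to 3′ on the gene's strand (RefSeq, build GRCr8, another build than that of the counts). The Vim window is chr17:81577011-81577260 on the plus strand and the Gfap window chr10:88361662-88361911 on the minus strand. Capitals mark matches on either strand to TATAAA (the TATA box), to CCAAT (the CCAAT box), to GGGCGG (the GC box), to TGANTCA (the site of AP-1) or to TTCNNNGAA (the site of STAT proteins).
Vim: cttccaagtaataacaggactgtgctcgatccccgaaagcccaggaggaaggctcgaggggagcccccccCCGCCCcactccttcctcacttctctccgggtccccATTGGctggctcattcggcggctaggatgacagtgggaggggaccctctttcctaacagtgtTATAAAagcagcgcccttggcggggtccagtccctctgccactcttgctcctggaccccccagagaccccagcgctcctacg
Gfap: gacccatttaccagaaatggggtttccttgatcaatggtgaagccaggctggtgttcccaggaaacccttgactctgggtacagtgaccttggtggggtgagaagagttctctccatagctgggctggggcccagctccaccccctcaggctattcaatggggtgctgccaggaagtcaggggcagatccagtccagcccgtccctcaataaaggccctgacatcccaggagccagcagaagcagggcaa

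The Vim window held 1 GC box, 1 CCAAT box and 1 TATA box, which lay 180 to 175, 144 to 140 and 82 to 77 bases upstream of the listed start and did not overlap. The Gfap window held no match to these letters. Over the 33469 promoters of the RefSeq table, 12.9% of such windows held TATAAA, 34.0% CCAAT, 30.5% GGGCGG, 6.34% TGANTCA and 7.67% TTCNNNGAA. The windows of Vim and Gfap were 62.4% and 57.6% G or C, against a median of 51.2% over the table. A promoter entry was matched for 7 of the 10 members. Of the rest of these, the windows of Nes and Ina held 2 GC boxes each and that of Lmna 1 GC box. The Lmnb1 window held 1 CCAAT box and the Lmnb2 window no match. Whether these matches bear on the ratios was not tested.

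Vim, the type III filament protein of mesenchymal and immature glial cells, was by far the most abundant member. Its level was 4655 TPM with Aβ and 5045 TPM with DMSO, rank 13 and rank 12 of all listed genes. Gfap followed at 838 TPM and 793 TPM, and Nes, the large type VI protein named for neural stem cells, at 255 TPM and 242 TPM. These 3 cytoplasmic genes made up 96.5% of the summed TPM of the 10 members with Aβ and 96.7% with DMSO. Within that sum Vim alone held 78.1% with Aβ and 80.2% with DMSO, and Gfap 14.1% and 12.6%.

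The next tier lay well below. Lmnb1 stood at 96.2 TPM with Aβ and 94.2 TPM with DMSO, ahead of Ina at 38.7 and 39.9 TPM, Lmna at 35.4 and 38.0 TPM, and Lmnb2 at 33.2 and 32.7 TPM. The order of Ina, Lmna and Lmnb2 was the same in both libraries, but with 1 library each the spread around these 3 close levels is unknown. The neurofilament subunits closed the order, with Nefm at 4.86 and 3.68 TPM, Nefl at 1.99 and 1.74 TPM and Nefh at 0.48 and 0.50 TPM. The rank order of all 10 members by TPM was thus identical in the 2 cultures.

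**Figure D1:**
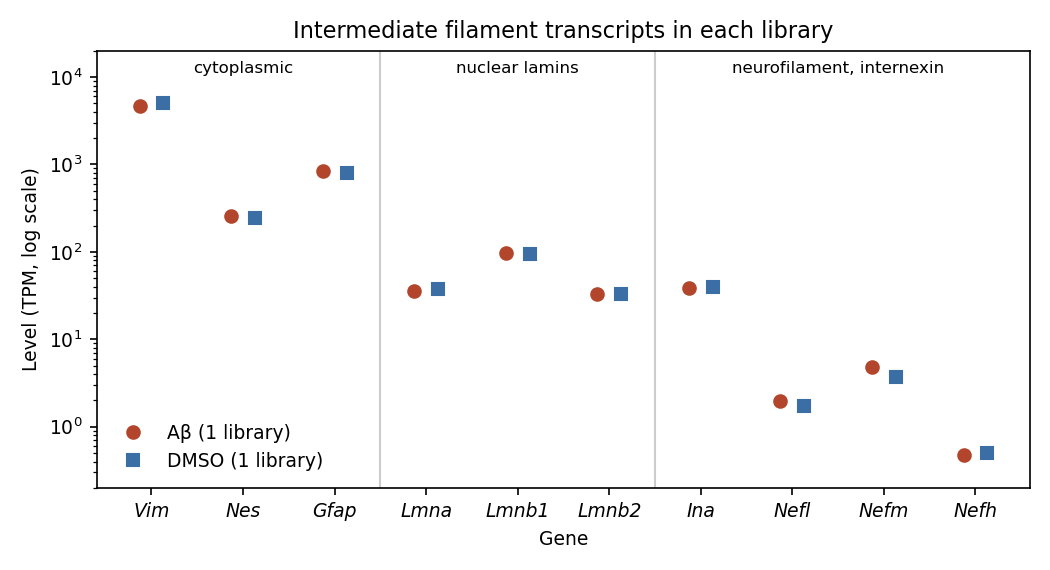
Level of each filament gene in TPM (log scale) in the Aβ library (circles) and the DMSO library (squares), 1 library each, with no error bars. Vim at 4655 and 5045 TPM stands far above Nefh at 0.48 and 0.50 TPM, and the order of the 10 genes is the same in both libraries.

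None of the 10 members reached a 2-fold difference: 0 were called by the rule of size (at least 2-fold, with the interval leaving out 1), against 0.674% of the 13505 measured genes. No p-value was computed, since each condition had 1 library. The interval alone left out 1 for 4 members, with Nes and Gfap higher with Aβ and Vim and Lmna lower. Among all measured genes it did so for 6.49% on the higher and 6.88% on the lower side, and among the 2528 genes at 100 CPM or more for 12.1% and 12.7%. Vim, Gfap and Nes all exceeded 1000 CPM, a level at which counting intervals are narrow. Of the 61 genes at that level, 24.6% had an interval above 1 and 42.6% below 1, so an interval beyond 1 was common there. The median log2 ratio of the members was -0.018, beside -0.00078 for all measured genes. In TPM these medians were 0.026 and 0.037, so TPM ratios ran slightly higher across all measured genes.

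Vim had 72945 counts with Aβ against 80416 with DMSO, and its ratio was 0.90 (0.891 to 0.909). Its share of all counts was 0.483% with Aβ and 0.535% with DMSO. Of the 61 genes at 1000 CPM or more, Vim had the lowest ratio, below Actg1, the cytoplasmic gamma-actin, at 0.932 (named after its value was seen). The ratios of those 61 genes had a median of 0.993 and a 5th to 95th percentile range of 0.943 to 1.03. Among the 230 genes at 500 CPM or more, 3 had a lower ratio than Vim, and among the 2528 at 100 CPM or more, 33 did. After removal of the length trend, a step added once the data had been seen, the log2 ratio of Vim was -0.14 against -0.15 as listed, still the lowest of the 61. In TPM the ratio was 0.923.

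Gfap had 21078 counts with Aβ against 20300 with DMSO, which gave a ratio of 1.03 (1.01 to 1.05) in CPM and of 1.06 in TPM. Nes had 15969 and 15453.64 counts, the only member with a fractional count, and a ratio of 1.02 (1.002 to 1.05). With the length trend removed the log2 ratio of Nes, which has the longest transcripts of the members, was 0.0078 against 0.036 as listed, while that of Gfap was 0.045 against 0.042. Both ratios lay inside the 5th to 95th percentile range of the 61 most abundant genes, whereas that of Vim lay outside it. Gfap was near the upper end of that range: 4 of the 61 had a higher ratio than Gfap, and 9 a higher ratio than Nes.

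**Figure D2:**
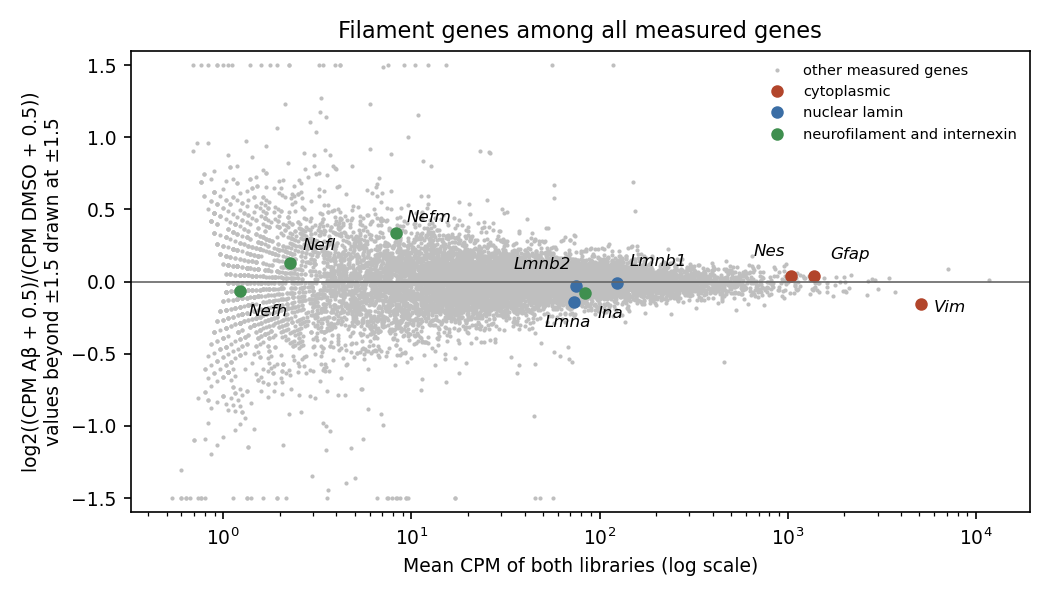
Log2 ratio (Aβ over DMSO, pseudocount 0.5) against mean CPM (log scale) for the measured genes, with the 10 filament genes coloured by class and grey points for the rest. Vim, at a log2 ratio of -0.15, sits below the narrow band of the other genes above 1000 CPM, and Gfap and Nes sit within it.

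Comparing members within a library removes the library factor. The Vim to Gfap ratio was 5.55 in TPM with Aβ and 6.36 with DMSO, and in counts the first was 0.874 times the second (0.855 to 0.893, Woolf interval for counting error). For Vim to Nes the TPM ratios were 18.2 and 20.8, a count quotient of 0.878 (0.857 to 0.899). For Nes to Gfap they were 0.305 and 0.306, a count quotient of 0.995 (0.966 to 1.02). For Vim to Lmna, the other member with an interval below 1, the TPM ratios were 131 and 133 and the count quotient was 0.991 (0.911 to 1.08). The interval thus lay below 1 for Vim against Gfap and Nes, and included 1 for Vim against Lmna and for Nes against Gfap. The summed counts of the 3 cytoplasmic genes had a ratio of 0.939 (0.931 to 0.947).

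Among the lamins, Lmna, which encodes lamins A and C, had 1050 counts with Aβ against 1147 with DMSO, or a ratio of 0.908 (0.834 to 0.988). Its TPM ratio was 0.933. Lmnb1, a B-type lamin gene, had 1863 and 1859 counts (0.994, 0.932 to 1.06), and Lmnb2, the second B-type gene, had 1124 and 1137 (0.981, 0.902 to 1.07). Both B-type genes were just below 1 in counts and at 1.02 in TPM. Their log2 ratios in TPM, 0.029 and 0.023, lay below the TPM median of 0.037 for all measured genes. Lmnb1 exceeded Lmna in both cultures, with a Lmna to Lmnb1 ratio of 0.368 with Aβ and 0.403 with DMSO in TPM. The count quotient of that pair, 0.913, had an interval of 0.822 to 1.02 that included 1. Summed over all 3 lamins the ratio was 0.967 (0.925 to 1.01), and the sum was 165 TPM in each library.

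Of the neuronal members, Ina was at the level of the lamins and the 3 neurofilament subunits were low. Ina, alpha-internexin, which appears early in neuronal development, had 1233 counts with Aβ and 1295 with DMSO (0.944, 0.873 to 1.02). Nefm, the medium neurofilament chain, had 141 and 109 counts, the furthest ratio of any member at 1.28 (0.992 to 1.66). Nefl, the light chain on which neurofilaments are built, had 36 and 32 counts (1.12, 0.674 to 1.86). Nefh, the heavily phosphorylated heavy chain, had 18 and 19 counts (0.940, 0.465 to 1.89). Summed over Nefl, Nefm and Nefh there were 195 counts with Aβ against 160 with DMSO, or a ratio of 1.21 (0.976 to 1.5). All of these intervals included 1, and at this depth a difference of the size seen for Vim would not be detectable in any of these 3 subunits. Ina exceeded Nefl 19.4-fold with Aβ and 22.9-fold with DMSO in TPM. The Ina to Nefm proportion was 7.96 and 10.8, with a count quotient of 0.736 (0.566 to 0.956). That pair was 1 of several compared, and it rests on 141 and 109 counts of Nefm. No share of such quotients over all pairs of genes was computed.

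**Figure D3:**
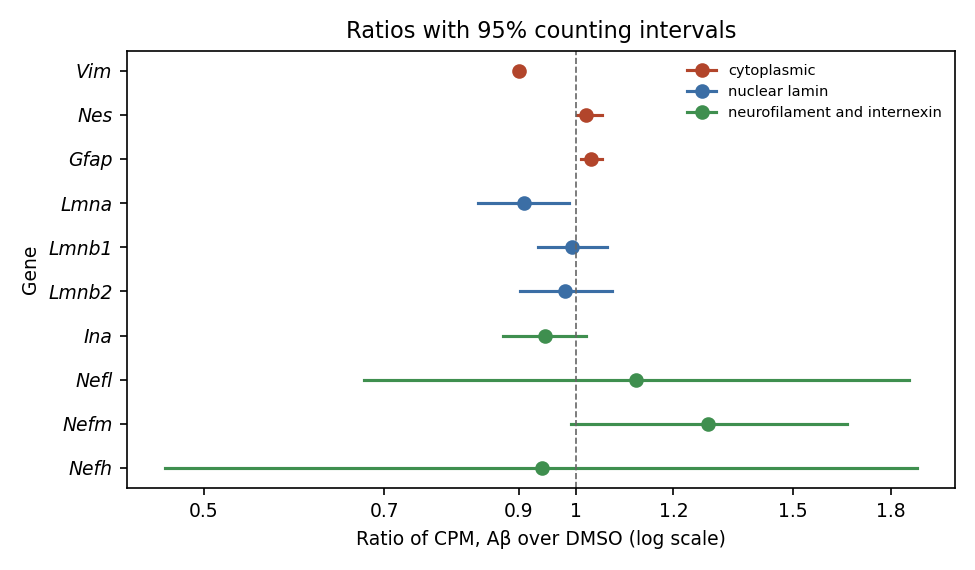
Ratio of CPM, Aβ over DMSO (log scale), for each filament gene, with bars for exact 95% counting intervals from 1 library per condition. The bars of Vim (0.891 to 0.909) and Lmna lie below 1 and those of Nes and Gfap above 1, and the bars of the 3 neurofilament subunits are the widest.

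Filament genes outside the 10 were scarce. Of 15 further genes looked for, 10 were in the table and 7 were measured, with a summed level of 31.3 TPM with Aβ and 35.9 TPM with DMSO. Intervals lay above 1 for 1 of the 7 and below 1 for 2, and the median log2 ratio was -0.10. The shares over all measured genes were 6.49% above and 6.88% below. Synm, synemin, which co-assembles with vimentin, had 206 counts with Aβ and 133 with DMSO (1.54, 1.23 to 1.93). Prph, peripherin, a neuronal type III protein, had 137 and 179 (0.759, 0.603 to 0.954), and Krt8, a simple-epithelial keratin, 92 and 131 (0.697, 0.528 to 0.916). Sync, syncoilin, had fractional counts and a ratio of 0.929 (0.795 to 1.08). All 4 were at or below 23.0 CPM, none reached 2-fold, and Synm was on the other side of 1 from Vim.

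Partners of the lamina were close to 1. Over all measured genes, intervals lay below 1 for 6.88% and above 1 for 6.49%, and at 100 CPM or more for 12.7% and 12.1%. Of 23 partner genes, all measured, 2 had an interval below 1 and 0 above, and the median log2 ratio was 0.0044. The 2 were Banf1, which bridges chromatin and the envelope, at 444 and 479 TPM (0.911, 0.858 to 0.967), and Tmpo, which encodes the lamina-associated polypeptide 2 proteins, at 144 and 149 TPM (0.940, 0.904 to 0.978). Tor1aip2, a torsin activator of the endoplasmic reticulum, stood at 0.998 (0.945 to 1.05).

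Linkers and chaperones of filaments lay on both sides of 1. Of 8 measured, intervals lay above 1 for 2 and below 1 for 3. The shares over all measured genes were 6.49% above and 6.88% below, and at 100 CPM or more 12.1% and 12.7%. The median log2 ratio was -0.051 in CPM and -5.9e-05 in TPM, beside -0.00078 and 0.037 for all measured genes. The giant linkers Dst and Macf1, which tie cytoskeletal systems together, stood at 1.09 (1.05 to 1.12) and 1.05 (1.01 to 1.08), and both have long transcripts. With the length trend removed their log2 ratios were 0.056 and 0.0049, against 0.12 and 0.066 with it. Dmd, dystrophin, which binds synemin, stood at 0.871 (0.810 to 0.937). Cryab, the small heat shock protein that chaperones GFAP and vimentin, had 60 and 89 counts (0.669, 0.474 to 0.938), and the co-chaperone Dnajb6 stood at 0.952 (0.876 to 1.04) with fractional counts.

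Of 19 measured kinases, phosphatases, proteases and ligases that act on filaments, 15 had a ratio below 1 and 4 above, with intervals below 1 for 6 and above 1 for 1. Among all measured genes 6.88% had an interval below 1 and 6.49% above, and among genes at 100 CPM or more 12.7% and 12.1%. The median log2 ratio of the 19 was -0.064, beside -0.00078 for all measured genes. In TPM it was -0.019, beside 0.037. Cdk1, the mitotic kinase that phosphorylates lamins and vimentin, stood at 0.938 (0.886 to 0.994), and Casp6, the caspase known for cutting lamin A, at 0.790 (0.656 to 0.95) with fractional counts. Ppp1ca and Ppp2ca, catalytic subunits of the main serine/threonine phosphatases, stood at 0.955 (0.917 to 0.994) and 0.995 (0.953 to 1.04), also with fractional counts. Cdk5, a neurofilament kinase, was the one enzyme with its interval above 1, at 1.15 (1.02 to 1.29).

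Of 11 measured transcription factors known to act on filament genes, the interval lay above 1 for 4 and below 1 for 0, beside 6.49% above and 6.88% below among all measured genes and 12.1% and 12.7% at 100 CPM or more. Their median log2 ratio was 0.053, or 0.022 once the length trend was removed. Nfib and Nfia, nuclear factor I proteins of gliogenesis that act on Gfap, stood at 1.18 (1.11 to 1.26) and 1.12 (1.004 to 1.24). Stat3, the cytokine-activated factor that drives Gfap, stood at 1.04 (1.01 to 1.08), and Sox2, the stem cell factor that acts on Nes, at 1.04 (1.002 to 1.09). Fos, a component of AP-1, stood at 0.978 (0.886 to 1.08). Whether these levels bear on the filament genes was not tested.

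**Figure D4:**
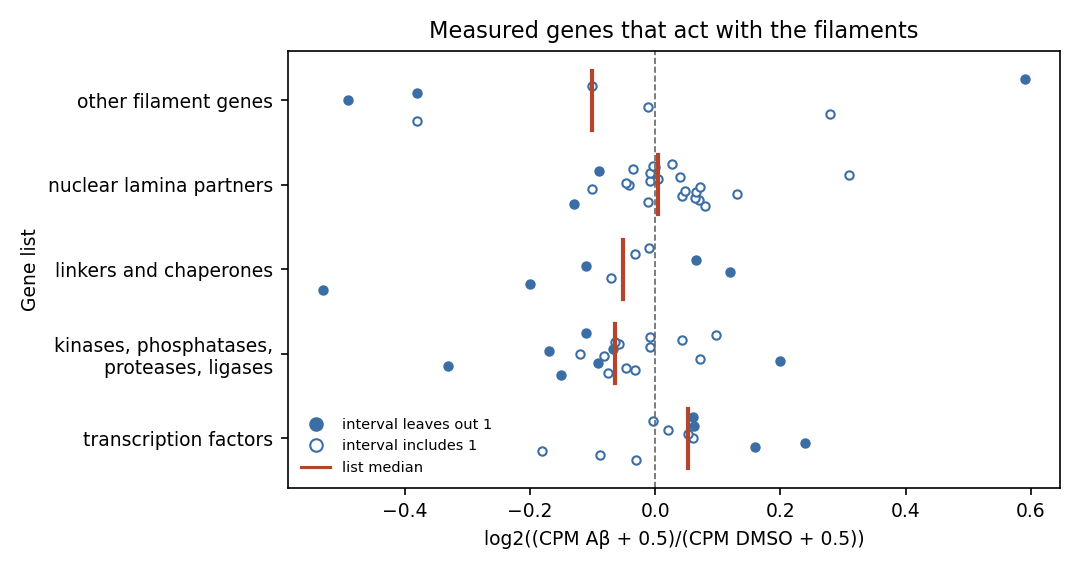
Log2 ratio (Aβ over DMSO, pseudocount 0.5) of each measured gene in 5 lists of genes that act with the filaments, filled where the 95% counting interval leaves out 1, with a line at the list median. Medians lie between -0.10 for other filament genes and 0.053 for transcription factors.

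The filament genes are also markers, so the markers of each candidate cell type are given beside them. OPC markers summed to 2183 TPM with Aβ and 2106 TPM with DMSO over the 7 of 8 in the table. They were led by the lineage factor Olig1 (850 and 841 TPM, a CPM ratio of 0.985) and the phosphatase receptor Ptprz1 (673 and 650 TPM, a CPM ratio of 1.01). Gfap, at 838 and 793 TPM, was thus about as abundant as Olig1. Of the 7 OPC markers, all measured, 5 had a ratio above 1 and 2 below, from 0.985 to 1.17. The interval lay above 1 for 3, Ptprz1 among them, and below 1 for 0. Over all measured genes it did so for 6.49% and 6.88%, and at 100 CPM or more for 12.1% and 12.7%. Astrocyte markers other than Gfap, all 12 of them in the table, summed to 2086 and 1966 TPM, with Glul, glutamine synthetase, at 585 and 537 TPM (1.06, 1.04 to 1.09) and the aldolase Aldoc at 466 and 441 TPM (1.03, 0.996 to 1.07). Of the 11 measured, 6 had a ratio above 1 and 5 below. The interval lay above 1 for 3 and below 1 for 1, Aldh1l1, at 0.883 (0.809 to 0.963). Over all measured genes the shares were 6.49% above and 6.88% below, and at 100 CPM or more 12.1% and 12.7%. None of the 12 was at 0, though 1 was under 1 CPM in both libraries. OPCs express several of these genes too, and the part of astrocytes in the Gfap level was not tested. In bulk RNA, fewer cells of a type and less RNA per cell cannot be told apart.

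Neural progenitor markers, all 7 measured, summed to 13154 TPM with Aβ and 13879 TPM with DMSO. Most of that sum was Fabp7, the brain fatty acid binding protein of radial glia and OPCs, at 12783 and 13532 TPM (0.937, 0.924 to 0.95). Over all measured genes, intervals lay above 1 for 6.49% and below 1 for 6.88%. Over the list, 4 of 7 ratios were above 1 and 3 below, with 1 interval on each side, and the median log2 ratio was 0.056. The interval above 1 was that of Sox2, a transcription factor of neural progenitors, at 226 and 211 TPM (1.04, 1.002 to 1.09), and the one below 1 was that of Fabp7. Neuronal markers other than filaments, 13 of 13 measured, summed to 1048 and 1009 TPM with a median log2 ratio of -0.0080. They were led by Tubb3, neuronal beta-tubulin, at 372 and 353 TPM and Stmn2, a microtubule regulator, at 212 and 208 TPM, while the neurofilament triplet summed to 7.33 and 5.92 TPM.

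Markers of the remaining lineages were low in both libraries. Microglial and macrophage markers summed to 13.9 TPM with Aβ and 16.3 TPM with DMSO over 10 genes, of which 5 were measured. Aif1 stood at 5.13 and 5.66 TPM and Cd68 at 2.35 and 3.27 TPM. All 5 measured ratios were below 1, and each interval included 1. Fibroblast and pericyte markers summed to 5.45 and 5.05 TPM over 6 genes, of which Lum and Rgs5 were at 0 with Aβ. Their 2 highest were the collagen chain Col1a2 (2.94 and 1.81 TPM, fractional counts) and the receptor Pdgfrb (1.81 and 1.92 TPM). Of the 3 measured, the interval lay above 1 for 1, Col1a2 at 1.58 (1.19 to 2.11), and below 1 for 0. Endothelial markers summed to 1.04 and 1.21 TPM over 4 genes, with the VEGF receptors Flt1 at 0.27 and 0.46 TPM and Kdr at 0.37 and 0.32 TPM. Schwann cell markers summed to 20.9 and 26.8 TPM, with the myelin lipid carrier Pmp2 at 16.3 and 21.9 TPM and the transcription factor Egr2 at 3.13 and 3.29 TPM. Of the 3 measured, the interval lay below 1 for 1, Pmp2 at 0.730 (0.598 to 0.889), and above 1 for 0. Among all measured genes, 6.49% had an interval above 1 and 6.88% below. Ependymal markers summed to 13.5 and 15.4 TPM, with the ciliary genes Rsph1 at 6.14 and 5.66 TPM and Foxj1 at 4.30 and 5.37 TPM. Mature oligodendrocyte markers summed to 41.3 and 40.9 TPM, with the myelin genes Mbp at 20.9 and 23.6 TPM (0.901, 0.78 to 1.04) and Mog at 18.2 and 15.6 TPM (1.14, 0.989 to 1.31). Each of these sums was below the level of Nes, the least abundant of the cytoplasmic members, in the same library. In the endothelial, ependymal and mature oligodendrocyte lists the interval included 1 for every measured gene.

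**Figure D5:**
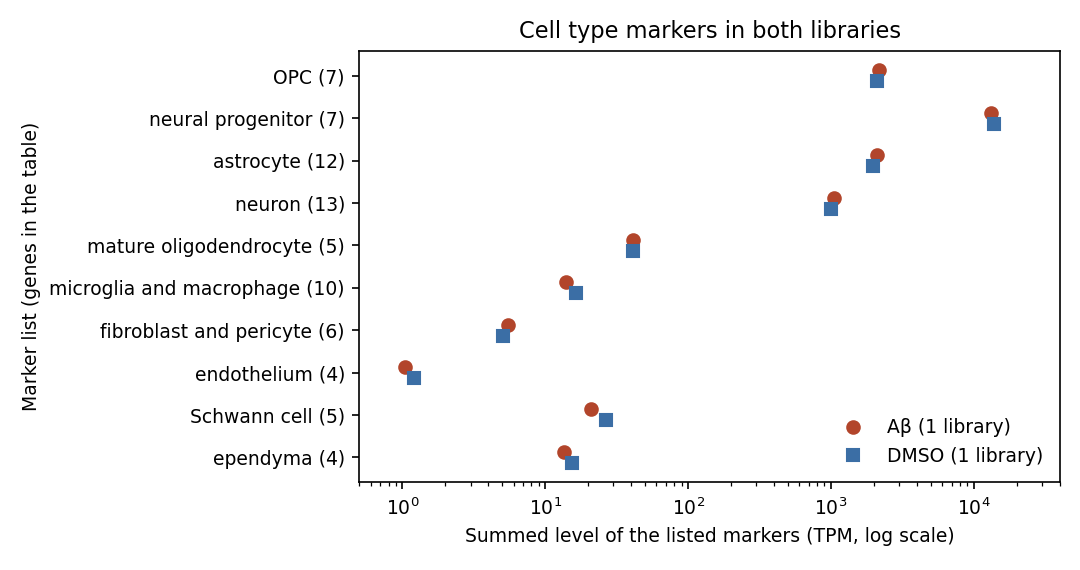
Summed TPM (log scale) of marker lists for 10 cell types in the Aβ library (circles) and the DMSO library (squares), with the number of listed genes in the table in brackets. OPC, neural progenitor, astrocyte and neuronal lists exceed 1000 TPM in both libraries, and endothelial and fibroblast lists stay at or below 5.45 TPM.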

How the data were processed

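Bulk RNA sequencing of 2 rat OPC cultures was used as deposited, 1 library with Aβ and 1 with DMSO, grouped by the treatment in the labels. Bowtie2 and Rnor_6.0 are listed in the submitters' processing notes, with no role given; quantifier, annotation and strand use: not given in the sources used here. From the deposited table the authors' estimated counts (expected counts, not all whole), TPM and FPKM were read, all per the file headers; the authors' normalized signal column was not used. Counts were rounded and scaled to CPM on TMM effective library sizes (edgeR 4.0.16, R 4.3.3; DESeq2 1.42.0 size factors as an alternative). Log2 ratios carry a pseudocount of 0.5 CPM and understate differences of low genes. A gene at 0 counts was set against a floor of 3 counts for the 2-fold rule. Intervals were checked on simulated counts with counting error alone, so the check does not cover variation between cultures or libraries. TPM is per length and orders genes within a library. Transcript length was taken from count over FPKM, and its trend over genes at 10 CPM or more was fitted by lowess (statsmodels 0.14.6).

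Members and lists (5 of partner genes, 10 of markers) were chosen with earlier results of these data known. Named were all members and the 2 highest markers per list. Of partner genes, the 3 highest per list by TPM were named, with up to 2 others of largest ratio whose interval left out 1. Actg1, Aldh1l1, Lum and Rgs5 were named after their values were seen. A marker that the rule takes is not reported here, and its list was summed without it.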

Additional observations from a re-analysis of the deposited data

How the results depend on the processing

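Alternatives were DESeq2 size factors, total counts alone, no filter, a filter of 10 CPM, a pseudocount of 5, TPM, FPKM, whole counts only and, chosen after seeing the data, the length trend removed. The count of members past 2-fold was 0, and the count whose interval left out 1 was 4, under both other library factors and both other filters. Neither filter could change these counts, as filters do not enter the intervals and the 4 members lay at 69.4 CPM or more. Both other library factors were close to the main one. Intervals were not counted with the length trend removed, where the log2 ratio of Nes fell from 0.036 to 0.0078. The median log2 ratio of the members ranged from -0.028 (filter of 10 CPM, which leaves 7 members, and whole counts only) to 0.026 (TPM, where the median of all measured genes was 0.037). TPM moved 3 members beyond their counting interval and turned none of the 4 around: the log2 ratio was -0.12 for Vim, 0.081 for Gfap and 0.076 for Nes. No replicate could be left out, and no paired analysis was possible because each condition had 1 library. Depth limits Nefl, Nefm and Nefh, with 18 to 141 counts per library.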
